A study of Mus musculus with 8 samples.

Results

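Heat shock chaperone transcripts were followed in bone marrow stem and progenitor cells of mice kept under 2 housing conditions. The 10 genes were Hspa1a, Hspa1b, Hspa8, Hsp90aa1, Hsp90ab1, Dnaja1, Dnajb1, Hsph1, Hspd1 and Hspe1, taken by symbol from the 27998 genes of the count table, and all 10 were found. They had been chosen by their levels across pools and progenitor states, so those levels are a description, and a test on these pools is not independent evidence that the genes stand apart. All mice were female C57BL/6 (B6), 3 to 4 months old. SPF mice stayed in a specific-pathogen-free facility, and CVT mice were moved from it to a conventional facility, where they shared cages for 1 month with mice born there. Lineage- CD117+ (KL) marrow cells, which were negative for CD3, CD4, CD8, CD45R, CD11b, TER119 and GR1, were profiled one cell at a time with 10x Genomics 3′ libraries. Each of the 8 libraries held the cells of 2 or 3 mice, so the pool and not the animal was the replicate. SPF pools 1 and 2 and CVT pools 3 and 4 came from mice numbered 1 to 10, and CVT pools 5 and 6 and SPF pools 7 and 8 from mice numbered 11 to 20.

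Chaperones of these families bind unfolded proteins and let them fold. Heat shock factor 1 is held inactive by HSP70 and HSP90 and, once unfolded protein draws them away, binds repeats of a short inverted unit, the heat shock element, in chaperone promoters. HSP70 proteins (Hspa1a, Hspa1b, Hspa8) work in cycles that J-domain proteins (Dnaja1, Dnajb1) start and the HSP110 exchange factor (Hsph1) completes. The cytosolic HSP90 proteins (Hsp90aa1, Hsp90ab1) mature kinases and hormone receptors, and HSP60 (Hspd1) with its lid HSP10 (Hspe1) folds proteins in the mitochondrial matrix. Hspa1a and Hspa1b are the strongly inducible members, whereas Hspa8 and Hsp90ab1 are made constitutively.

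The promoters of the inducible pair and of the mitochondrial pair are shown because the inducible pair moved most between pools and the mitochondrial pair shares its upstream region. In the 300-base RefSeq windows around each start (250 bases before it and 50 after, build GRCm38.p6), 7 of the 10 genes had an entry; Hspa8, Hsp90aa1 and Hsp90ab1 had none. Capitals mark heat shock element pairs, searched on both strands as GAANNTTC or TTCNNGAA, in which neighbouring pairs can share a unit. The first 2 sequences are the 250 bases upstream of Hspa1a (minus strand, chr17:34972157-34972406) and Hspa1b (minus strand, chr17:34959239-34959488), which were identical at 247 positions and differed at 3.
Hspa1a: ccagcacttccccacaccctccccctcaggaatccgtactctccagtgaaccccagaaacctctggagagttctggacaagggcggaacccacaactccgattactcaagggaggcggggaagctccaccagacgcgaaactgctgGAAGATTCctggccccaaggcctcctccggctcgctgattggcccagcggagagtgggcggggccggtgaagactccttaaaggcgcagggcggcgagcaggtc
Hspa1b: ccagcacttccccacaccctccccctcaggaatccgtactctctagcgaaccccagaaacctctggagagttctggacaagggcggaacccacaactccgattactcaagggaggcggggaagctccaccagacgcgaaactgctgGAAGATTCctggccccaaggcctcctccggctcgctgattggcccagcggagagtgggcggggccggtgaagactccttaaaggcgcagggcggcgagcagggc

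Hspd1 and Hspe1 lie head to head, and their windows overlapped on a stretch with 4 successive units. On the Hspe1 strand (plus, chr1:55088053-55088082) the 30 bases around it read as follows, with the units 89 to 72 bases before the Hspe1 start and 127 to 144 bases before one of the Hspd1 starts.
Hspe1: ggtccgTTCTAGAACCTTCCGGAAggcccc

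Hsph1 held 3 successive units after each of its starts (minus strand, chr5:149636279-149636308), 16 to 28 bases after one of them. It also held 1 pair upstream, not shown, 54 to 47 bases before that start. Dnaja1 held 1 pair upstream (plus strand, chr4:40722333-40722362).
Hsph1: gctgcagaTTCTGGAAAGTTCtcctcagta
Dnaja1: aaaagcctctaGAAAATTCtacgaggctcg

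At least 1 pair was found for 6 of the 7 genes with an entry, Dnajb1 being the exception, and 3 or more successive units for 3 of them. Of all 27025 genes in the table, 16.97% held at least 1 pair in a window, 0.662% at least 3 successive units, and 8 genes at least 4. A match describes the letters and is not a measured binding site, and nothing follows for Dnajb1 from these letters being missing in its window.

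The table held 29891 cells, 1888 to 4845 per pool, with a median of 7530 to 12772 UMIs (unique molecules) per cell, highest in CVT pool 4. Kit, the gene of the sorted antigen CD117, had 56.8 to 87.2 CPM in the 8 pools, where CPM are a gene's UMIs per 1000000 UMIs of the pool or, further on, of a class in a pool. A cell barcode occurred in more than 1 pool for 1048 cells. Cells in clusters with late granulocyte genes made up 2.23% to 12.1% of a pool, and summed haemoglobin transcripts ran from 134 to 174 CPM in pools of mice 1-10 and from 1546 to 4502 in pools of mice 11-20.

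Hspa1a and Hspa1b, the inducible HSP70 pair, were highest in the CVT pools of mice 1-10. Hspa1a had 4.46, 18.7, 8.28 and 13.96 CPM in SPF pools 1, 2, 7 and 8 and 59.4, 122, 22.7 and 3.57 in CVT pools 3, 4, 5 and 6. CVT pool 6 lay below every SPF pool, CVT pools 3, 4 and 5 lay above every SPF pool, and the highest pool exceeded the lowest 34.2-fold. Hspa1b had 4.10, 6.60, 5.15 and 4.77 CPM in SPF pools 1, 2, 7 and 8 and 17.7, 21.4, 9.26 and 2.69 in CVT pools 3, 4, 5 and 6. The pools of the 2 housing groups overlapped for both genes. Their coding sequences are close to identical, and the division of reads between the copies is uncertain.

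The fitted log2 fold change, CVT over SPF, was 2.21 (SE 0.84) for Hspa1a and 1.36 (SE 0.51) for Hspa1b, with 4 pools in each group. Without CVT pool 4 the Hspa1a value was 1.33. Within mice 1-10, both CVT pools lay above both SPF pools, with means of 90.7 and 11.6 CPM of Hspa1a. Within mice 11-20 the pools overlapped, with means of 13.1 in CVT and 11.1 in SPF. The difference in housing effect between the pool sets had a log2 value of -2.74 (SE 1.06) for Hspa1a, which did not pass (adjusted p = 0.534 by edgeR's quasi-likelihood test over all 13092 genes tested). This value was negative for all 10 genes and passed for none, and over all genes 0% were called by edgeR, with 1188 at an unadjusted p below 0.05. Within mice 1-10 both CVT pools lay above both SPF pools for 6 of the 10 genes (Hspa1a, Hspa1b, Hsp90ab1, Dnajb1, Hspd1 and Hspe1), against 14.6% of all genes tested, and below them for Hsph1, against 41.9%. Within mice 11-20 both CVT pools lay above both SPF pools for Hspe1 (11.8% of all genes) and below them for Hspa8 (24% of all genes), and the pools overlapped for the other 8.

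Hspa8, the constitutive HSP70, had 1672, 2117, 1485 and 1981 CPM in SPF pools 1, 2, 7 and 8 and 1943, 2090.1, 1406 and 1395 in CVT pools 3, 4, 5 and 6. Hsp90ab1, the constitutive HSP90, had 2424, 2603, 2091 and 2369.8 in the same SPF pools and 2748, 3158, 2169 and 2126 in the CVT pools. Hsp90aa1, its inducible paralog, ran from 1154 to 1629 in SPF and from 1118 to 1707 in CVT pools. All 3 overlapped between the housing groups and spanned at most 1.53-fold from the lowest to the highest pool.

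The co-chaperones had a similarly narrow range. Dnajb1, a J-domain protein and a classical heat shock factor 1 target, had 46.6, 49.5, 39.4 and 47.9 CPM in SPF pools 1, 2, 7 and 8 and 57.8, 63.4, 45.2 and 36.7 in CVT pools 3, 4, 5 and 6. Dnaja1 ran from 228 to 331 in SPF and from 207 to 289.9 in CVT pools, and Hsph1 from 21.2 to 36.1 in SPF and from 22.3 to 30.7 in CVT pools. Dnaja1 and Hsph1 were lower on average in CVT than in SPF pools, with the groups overlapping, while Hspa1a was higher.

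The mitochondrial pair separated the pool sets, as Hsp90aa1 and Hsp90ab1 did. Of all genes tested, 11.3% lay lower in every pool of mice 11-20. Hspd1 had 525, 565, 598 and 587 CPM in pools 1 to 4 and 401, 393, 382 and 469 in pools 5 to 8, so that every pool of mice 1-10 lay above every pool of mice 11-20. Hspe1 had 849, 882, 896 and 935 in pools 1 to 4 and 830.4, 827, 727 and 822 in pools 5 to 8, again without overlap. Within each set, both CVT pools lay above both SPF pools for Hspe1.

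**Figure D1:**
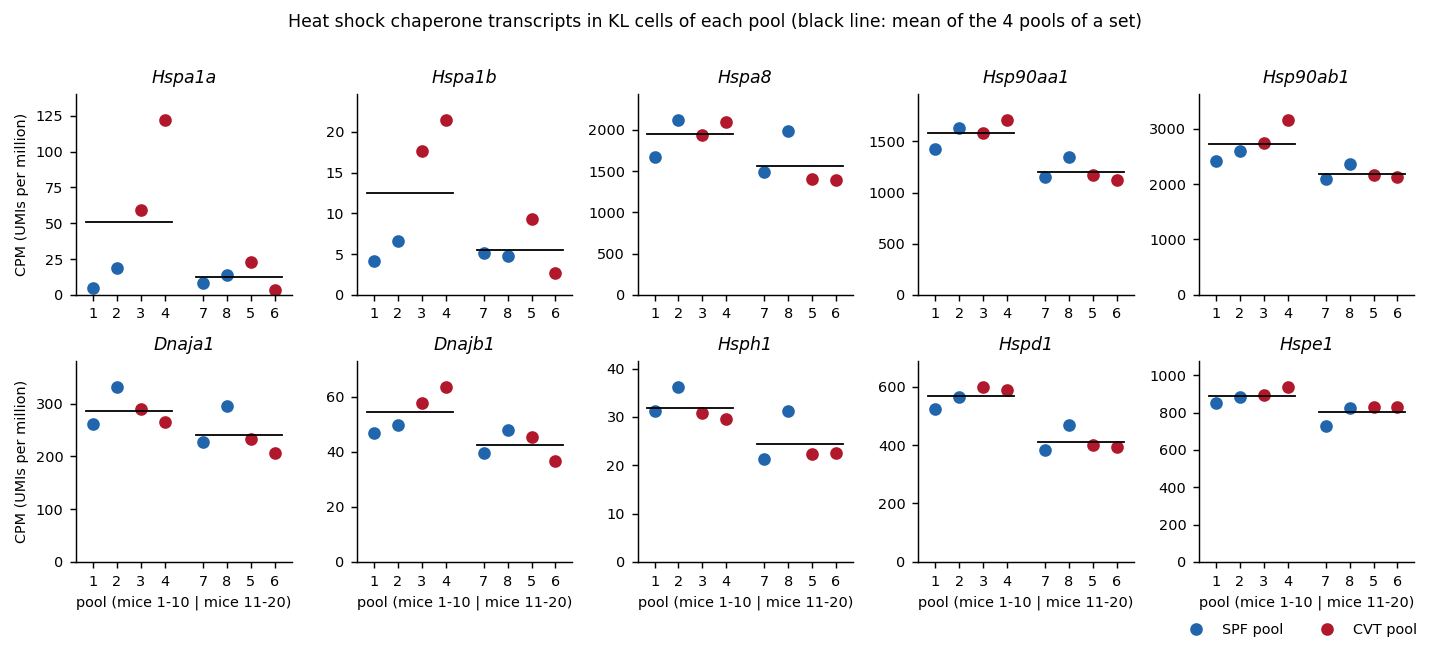
Level of each chaperone gene in each pool, in CPM (vertical axes start at 0 and differ between panels), with SPF pools in blue, CVT pools in red and the mean of each pool set as a black line. Hspa1a reached 122 CPM in CVT pool 4 against 3.57 in CVT pool 6, while Hspd1 lay between 525 and 598 in all pools of mice 1-10 and between 382 and 469 in all pools of mice 11-20.

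Between CVT and SPF pools, 0 of 13092 genes (0%) passed an edgeR adjusted p of 0.05, 921 had an unadjusted p below 0.05, and DESeq2 called 13. None of the 10 chaperone genes was called by either tool, their fitted log2 fold changes other than those of the inducible pair lay between -0.14 and 0.20, and for none did the CVT and SPF pools separate (6.16% of the genes tested had separate pools in one direction or the other). Since the genes were chosen by these levels, the CVT and SPF values are a description only.

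Between the pool sets all 10 genes were lower in mice 11-20, with a median log2 fold change of -0.37 against 0.01 over all genes. With housing in the model, 5 of the 10 were called lower, against 9.72% of the 13092 genes tested. As the genes were chosen by their levels in these pools, the counts and p-values for the sets are a description only. Hspd1 fell by 0.46 on the log2 scale (SE 0.07, edgeR adjusted p = 0.0107), Hsp90aa1 by 0.40 (SE 0.08, edgeR adjusted p = 0.0154) and Hsp90ab1 by 0.31 (SE 0.08, edgeR adjusted p = 0.0287). Hsph1 fell by 0.38 (SE 0.10, edgeR adjusted p = 0.0281) and Dnajb1 by 0.35 (SE 0.11, edgeR adjusted p = 0.0459). The other 5 did not pass: the log2 values were -1.58 for Hspa1a (-2.23 without SPF pool 8 and -0.92 without CVT pool 6), -1.08 for Hspa1b, -0.32 for Hspa8, -0.25 for Dnaja1 and -0.14 for Hspe1, with edgeR adjusted p from 0.0614 to 0.129.

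The pools separated without overlap for 4 of the 10 genes, Hsp90aa1, Hsp90ab1, Hspd1 and Hspe1, against 11.3% of the genes tested that lay lower in every pool of mice 11-20. For Hspa1a the lower level in mice 11-20 was carried by the CVT pools, since the SPF pools had means of 11.6 in mice 1-10 and 11.1 in mice 11-20. For Hspd1 both housing groups took part, with means of 545 and 425 in the SPF pools and 593 and 397 in the CVT pools of mice 1-10 and mice 11-20.

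The number of genes called depended on single libraries. Without SPF pool 1 or without SPF pool 8, all 10 passed, beside 1472 of 13215 and 2296 of 13183 genes called lower. Without CVT pool 4, 5 or 6 only Hspd1 passed (145 of 13210, 59 of 13235 and 71 of 13188 genes called lower). Without SPF pool 2 or 7 Hsp90aa1 and Hspd1 passed (666 of 13233 and 320 of 13201), and without CVT pool 3 none did (14 of 13213). Beside this, 13 of 13 MEP (megakaryocyte-erythroid progenitor) marker genes were lower in mice 11-20 and 10 of them passed, 11 of 11 late granulocyte genes rose, 4 of 4 haemoglobin genes rose, and 24.1% to 28.6% of cells per pool were MEP-like in mice 1-10 against 17.1% to 19.8% in mice 11-20. Their part in the chaperone difference was not tested. With the late granulocyte clusters left out, 1204 of 13011 genes were called lower, among them the same 5 chaperone genes. No cause was tested by leaving these clusters out. What else differed between mice 1-10 and mice 11-20 is not given in the sources used here. In summed counts fewer cells of a type and less RNA per cell cannot be told apart.

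The pool sets were also compared within 6 progenitor classes, clustered without the chaperone and stress genes and named from marker genes. These were long-term stem cell (LTHSC)-like, multipotent progenitor (MPP)-like, lymphoid-primed (LMPP)-like, common myeloid (CMP)-like, megakaryocyte-erythroid (MEP)-like and granulocyte-monocyte (GMP)-like cells. One MPP-like cluster was led by the stem cell gene Hlf, CMP-like clusters included some led by platelet genes, and 1 MEP-like cluster by interferon-stimulated genes. Of 57 combinations of gene and class tested, 52 were lower in mice 11-20, 10 of them called, and 5 were higher, none called. The counts within classes are again a description, since the genes were chosen by their levels across these pools and progenitor states.

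In all, 6 of the 10 genes passed in GMP-like cells, where 2.12% of genes were called lower: Hspa1a (log2 -1.91), Hspa1b (-1.15), Hsp90ab1 (-0.29), Hsp90aa1 (-0.19), Dnajb1 (-0.41) and Hspd1 (-0.22). Hspa1a was also called in MPP-like cells (log2 -2.52, 0.948% of genes called lower), LMPP-like cells (log2 -2.47, 0.492% called lower) and CMP-like cells (log2 -2.23, 0.191% called lower). Hspd1 was the other gene called in MPP-like cells. With 1 pool left out, the Hspa1a value ran from -3.25 (without CVT pool 5) to -1.39 (without CVT pool 4) in MPP-like cells, from -2.88 (without CVT pool 5) to -1.80 (without CVT pool 6) in LMPP-like cells, and without SPF pool 8 or CVT pool 6 it was -3.14 or -1.63 in CMP-like and -2.54 or -1.18 in GMP-like cells. The call was lost without CVT pool 4 in MPP-like cells, without CVT pool 6 in GMP-like cells, and without CVT pool 3, 4 or 5 or SPF pool 2 in CMP-like cells. In MEP-like cells, where 0.00933% of genes were called lower, and in LTHSC-like cells, where 0.06% were, none of the 10 passed.

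Leaving out 1 pool at a time left between 1 and 8 of the 10 called in GMP-like cells, between 1 and 3 in LMPP-like cells and between 0 and 6 in MPP-like and CMP-like cells. The highest of these counts were reached without SPF pool 8. In that fit 411 of 10142 genes were called lower in GMP-like and 70 of 10007 in LMPP-like cells. In MPP-like cells 246 of 9928 were called lower, and in CMP-like cells 107 of 10029. Only Hsp90ab1 stayed called in GMP-like cells without CVT pool 6, where 25 of 10140 genes were called lower. In MEP-like cells without SPF pool 8, 9 of the 10 were called, beside 782 of 10790 genes called lower. Hspe1, which was 0.14 lower on the log2 scale in all KL cells, had log2 values between -0.04 and 0.10 within the 6 classes and passed in none of them.

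**Figure D2:**
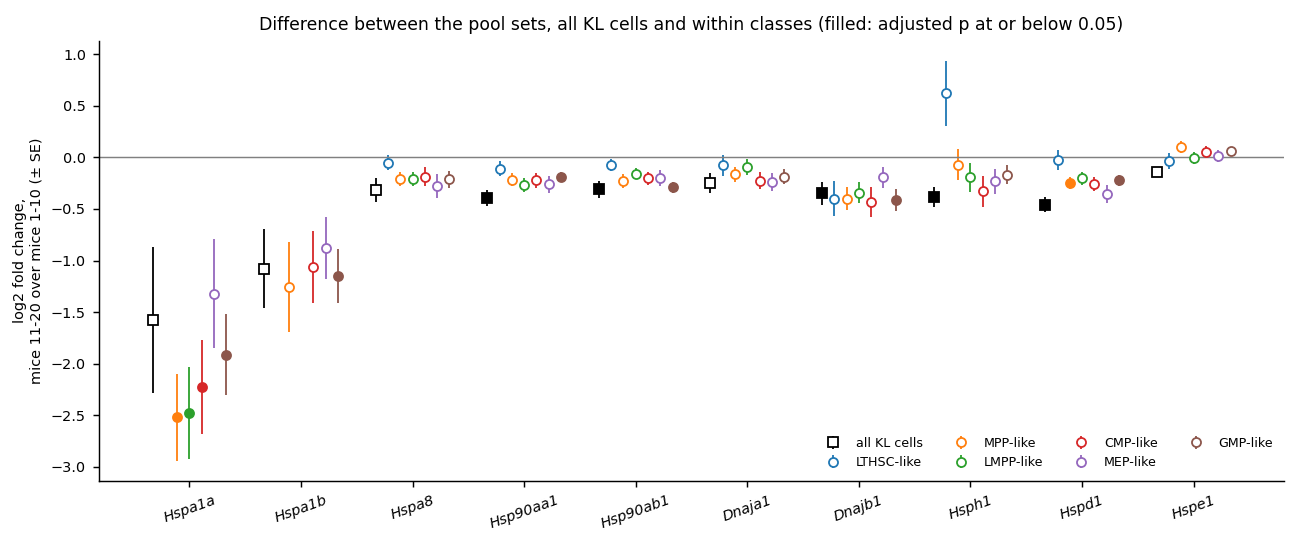
Log2 fold change of each chaperone gene, mice 11-20 over mice 1-10, with its SE, in all KL cells (squares) and within each progenitor class (circles); filled symbols passed an adjusted p of 0.05. Hspa1a lay between -2.52 and -1.32 in the 5 classes where it could be tested, and Hspe1 lay between -0.04 and 0.10.

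Across progenitor classes, MEP-like cells had the highest mean of 7 of the 10 genes and LTHSC-like cells the lowest of 9. Some of these lowest places were narrow. For Dnaja1, CMP-like lay above LTHSC-like cells in 6 of 8 pools, and for Hsph1, LMPP-like lay above LTHSC-like cells in 5 of 8. Hspe1 had 1266 ± 86.9 CPM (SD, n = 8 pools) in MEP-like, 819.9 ± 39.5 in GMP-like and 478 ± 27.1 in LTHSC-like cells. Hspd1 followed the same order, with 727 ± 131 in MEP-like, 507 ± 63.2 in GMP-like and 247 ± 17.6 in LTHSC-like cells. For both mitochondrial genes MEP-like lay above GMP-like and GMP-like above MPP-like cells in 8 of 8 pools, whereas MPP-like and CMP-like cells changed places between pools.

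Of the cytosolic HSP90 pair, Hsp90aa1 stood out in MEP-like cells. Hsp90aa1 had 2083 ± 306 in MEP-like against 1206 ± 131 in GMP-like cells and lay higher in 8 of 8 pools. Hsp90ab1 had 2728 ± 351 in MEP-like against 2628 ± 236 in LMPP-like cells and lay higher in 6 of 8 pools, and its lowest class, LTHSC-like cells, had 2079.6 ± 149. In LTHSC-like cells Hsp90aa1 was at 764 ± 63.9.

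Hsph1 was set apart by its MEP-like level, 47.3 ± 8.72 CPM against 21.9 ± 4.26 in GMP-like cells, higher in 8 of 8 pools, while GMP-like lay above CMP-like cells in 4 of 8 pools. Hspa8 had 1975 ± 365 in MEP-like and 1335 ± 148 in LTHSC-like cells. Of the J-domain genes, Dnaja1 ran from 252 ± 35.8 in LTHSC-like to 298 ± 35.1 in LMPP-like cells, and Dnajb1 from 51.7 ± 10.1 to 59.0 ± 16.1 in 5 of the classes, with 34.5 ± 6.76 in GMP-like cells, which lay below LMPP-like cells in 8 of 8 pools.

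**Figure D3:**
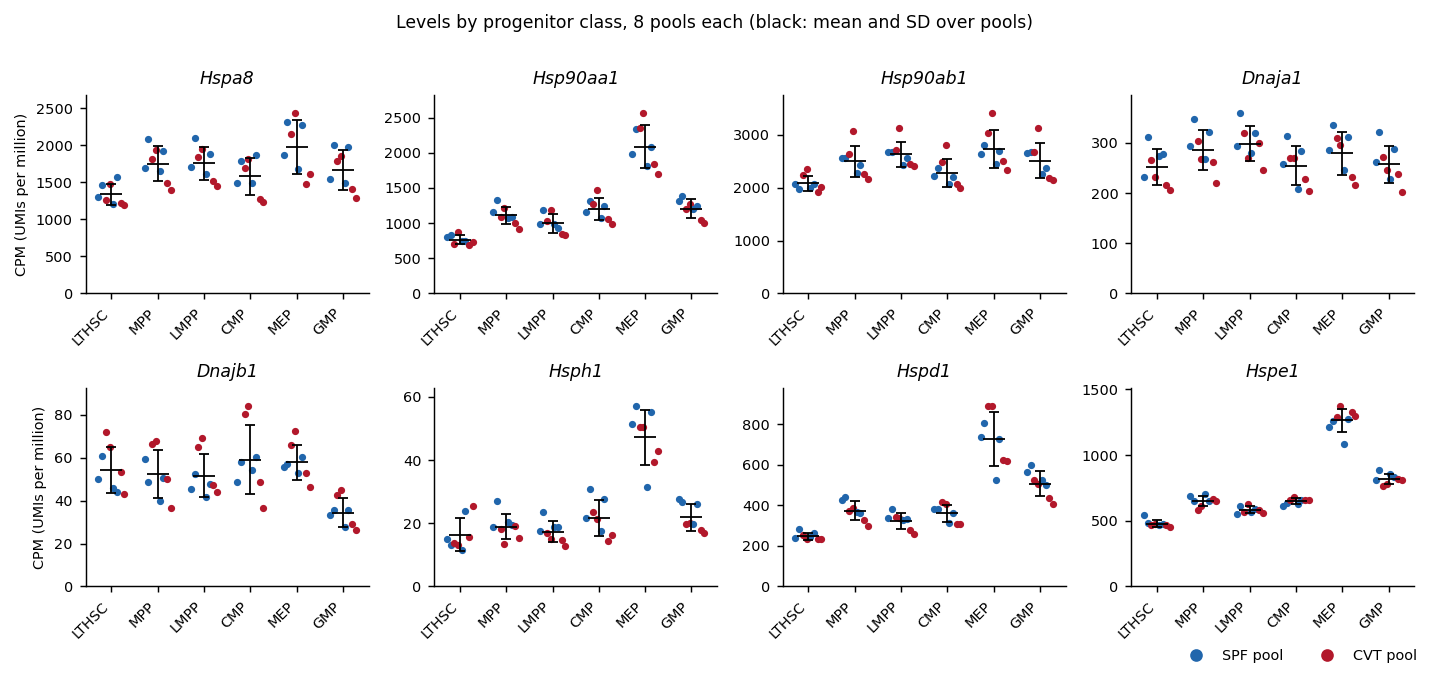
Levels of 8 chaperone genes by progenitor class in CPM (vertical axes start at 0), 1 point per pool, SPF in blue and CVT in red, with the mean and SD over the 8 pools in black. Hsp90aa1, Hsph1, Hspd1 and Hspe1 were highest in MEP-like cells, and Dnajb1 was lowest in GMP-like cells.

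Of the inducible pair, Hspa1a had its highest mean among the 6 progenitor classes in CMP-like cells. Hspa1a had a mean of 54.5 CPM in CMP-like, 36.4 in GMP-like, 26.8 in MEP-like, 16.4 in MPP-like and 13.8 in LMPP-like cells. Outside these classes, monocyte or dendritic-like cells had 10.0, 28.4, 21.7 and 29.6 CPM in SPF pools 1, 2, 7 and 8. CMP-like cells had 5.08, 30.2, 6.56 and 24.4 there. In CVT pools 3, 4, 5 and 6 the values were 95.3, 179, 51.4 and 6.54 in monocyte or dendritic-like and 115, 223, 28.4 and 3.61 in CMP-like cells. CMP-like lay above GMP-like cells in 4 of 8 pools, so their order is not settled, whereas MEP-like lay above MPP-like cells in 8 of 8 pools. With coarser clusters (resolution 1) the CMP-like mean was 36.2 CPM, above GMP-like cells in 2 of 8 pools, and the LTHSC-like mean 6.29 against 2.20 here. LTHSC-like cells held 9 Hspa1a UMIs in all, with none in 4 pools. In CVT pool 4, Hspa1a reached 223 in CMP-like, 135 in GMP-like, 89.4 in MEP-like, 81.1 in MPP-like and 50.04 in LMPP-like cells, and in CVT pool 6 the same classes had 3.61, 4.81, 4.52, 1.55 and 0.

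In each of these classes CVT pool 4 had the highest Hspa1a level and CVT pool 3 the next highest. Below them the order of the pools varied. SPF pool 2 lay above CVT pool 5 in CMP-like cells (30.2 against 28.4 CPM) and below it in GMP-like cells (25.3 against 29.5). In LTHSC-like cells CVT pool 4 had no Hspa1a UMI and CVT pool 3 the highest level. Hspa1b was highest in MEP-like cells, with 14.6 ± 8.74 CPM, which lay above CMP-like cells (10.8 ± 9.89) in 8 of 8 pools.

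**Figure D4:**
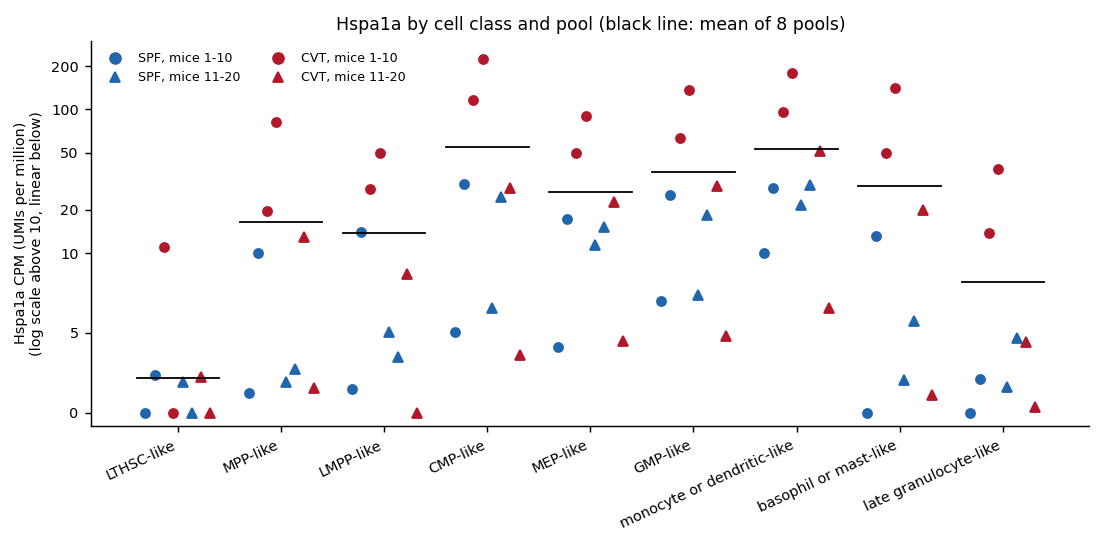
Hspa1a in CPM by cell class and pool (axis linear to 10 and logarithmic above), SPF in blue and CVT in red, circles for mice 1-10 and triangles for mice 11-20, and the mean of 8 pools as a black line. CVT pool 4 reached 223 in CMP-like cells, and LTHSC-like cells stayed at or below 11.05 in every pool.

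Single cells showed how widely the inducible transcript was spread. The share of cells with at least 1 Hspa1a UMI was 3.28%, 10.4%, 4.46% and 7.26% in SPF pools 1, 2, 7 and 8 and 26.7%, 44.5%, 10.2% and 2.57% in CVT pools 3, 4, 5 and 6. After each cell was thinned to 2759 UMIs, the share was 21.3% (95% exact binomial interval 20.1% to 22.6%, counting error only) in CVT pool 4 and 0.834% (0.581% to 1.16%) in CVT pool 6. No cell held more than 26 Hspa1a UMIs, and the top 1% of cells carried 9.84% of the Hspa1a UMIs in CVT pool 4 and 58.5% in CVT pool 6. The pools with high totals thus had the transcript in a larger share of their cells.

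Thinned shares, averaged over pools, were 10.4% in monocyte or dendritic-like cells (median 13808 UMIs per cell before thinning) and 7.88% in CMP-like cells (median 6115). They were 1.92% in late granulocyte-like cells (median 6981) and 0.828% in LTHSC-like cells (median 5413). The 142 T or NK-like cells averaged 9.41%, from 0% to 21.4% in a pool, with the transcript in 12 cells. No class here is known to lack Hspa1a, so the background from free RNA has no direct measure. Hspa8 was found in 95.4% to 99.9% of cells per pool before thinning.

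Whether other chaperones accompany Hspa1a in the same cells was asked at equal depth: 1979 thinned cells with an Hspa1a UMI were compared, pool by pool, with cells without one, weighted to the same class make-up. SPF pools 1, 2, 7 and 8 gave 26, 141, 32 and 120 of the cells with Hspa1a. CVT pools 3, 4, 5 and 6 gave 546, 890, 189 and 35. Hspa1b averaged 0.0744 UMIs per cell with Hspa1a against 0.0246 without, higher in 8 of 8 pools (exact sign-flip permutation test over pools, two-sided p = 0.00781, the smallest possible, adjusted p = 0.0391 over 25 genes tested). In SPF pools 1 and 7, which had the fewest cells with Hspa1a, the Hspa1b means were 0.0385 and 0.03125 against 0.0129 and 0.0170. Single UMIs weigh heavily in those pools. Hspa8 averaged 5.17 against 4.69 and was also higher in 8 of 8 pools (exact permutation p = 0.00781, adjusted p = 0.0391). Hsp90ab1, 6.83 against 6.52, was higher in 7 of 8 pools (exact permutation p = 0.0156, adjusted p = 0.0433).

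The remaining 6 did not pass. Hsph1 averaged 0.0764 against 0.0664, Dnajb1 0.155 against 0.138, Dnaja1 0.775 against 0.695 and Hsp90aa1 3.53 against 3.44. Hspd1, at 1.18 in both kinds of cell, and Hspe1, at 2.004 against 2.10 and higher in 1 of 8 pools, were not higher with Hspa1a. Over 5400 genes, 0.574% were higher in 8 of 8 pools, the median ratio was 0.997 and the 95th percentile 1.25. The ratio of the means was 1.103 for Hspa8 and 1.05 for Hsp90ab1, at percentiles 79.8 and 66.7 of these genes, so that many genes had ratios as large. Immediate early genes, which respond to growth signals and to cell isolation, were compared too: of 16 with enough counts 6 passed as higher in cells with Hspa1a, among them Fos with 0.704 against 0.419 UMIs per cell, in 8 of 8 pools. How reads shared by Hspa1a and Hspa1b bear on the Hspa1b value was not tested.

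**Figure D5:**
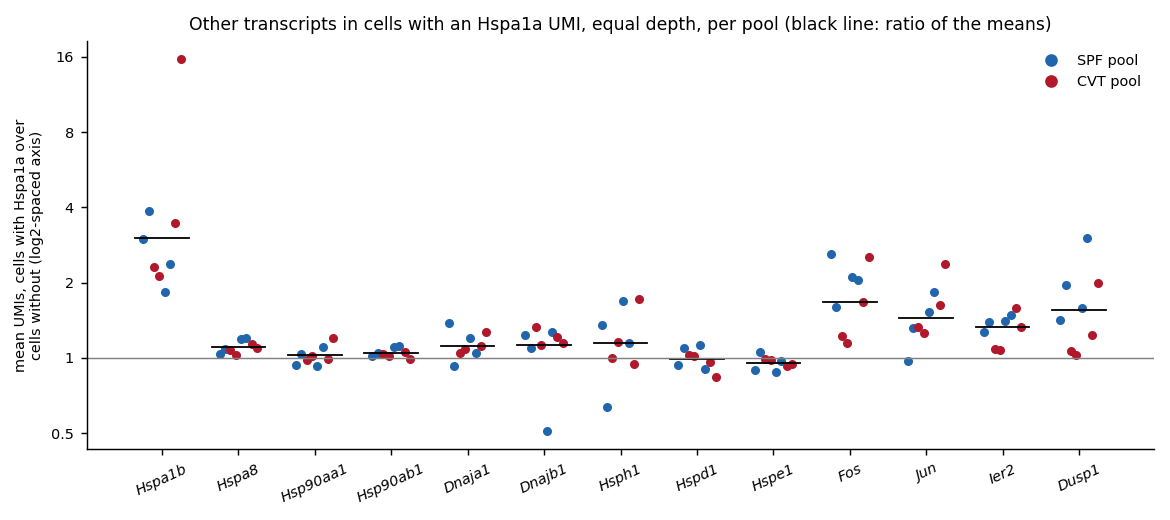
Ratio of mean UMIs per cell in cells with an Hspa1a UMI to cells without one, at equal depth and class make-up, for the 9 other chaperone genes and 4 immediate early genes (axis spaced on a log2 scale), 1 point per pool (SPF in blue, CVT in red), with the ratio of the means as a black line. Hspa1b lay above 1 in 8 of 8 pools with a ratio of the means of 3.03, and Hspe1 had a ratio of 0.956.

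The wider chaperone network was read from lists of related genes. Between the pool sets, 35 of the 101 tested genes in 7 chaperone lists were called lower and 0 higher, with a median log2 fold change of -0.16, against 9.72% called lower and a median of 0.01 over all genes. These counts move with the calls over all genes, which ran from 82 without CVT pool 3 to 4510 without SPF pool 8. Of the HSP90 co-chaperones, which hand clients to Hsp90aa1 and Hsp90ab1, 7 of 14 passed, and of the TRiC chaperonin and prefoldin genes, which fold actin and tubulin, 6 of 13. Mitochondrial chaperones and proteases gave 6 of 13, endoplasmic reticulum chaperones 8 of 22, J-domain, BAG and other HSP70 co-chaperones 6 of 25, other HSP70, HSP110 and small heat shock proteins 2 of 11, and heat shock factors and their regulators 0 of 3. All these calls were lower in mice 11-20.

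The largest falls among the called genes of these lists were in Hspa5 and Dnaja3. Hspa5 (BiP, the endoplasmic reticulum HSP70) had 321, 415, 382 and 376 CPM in pools 1 to 4 and 262, 246, 263 and 340.1 in pools 5 to 8, a fall of 0.43 on the log2 scale (SE 0.10, edgeR adjusted p = 0.0234). Dnaja3, the mitochondrial J-domain partner, had 38.7, 37.1, 38.3 and 40.0 in pools 1 to 4 and 27.9, 27.7, 25.4 and 33.7 in pools 5 to 8, a fall of 0.42 (SE 0.08, edgeR adjusted p = 0.0149). In both genes SPF pool 8 was the highest of mice 11-20, as it was for 7 of the 10 chaperone genes.

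For housing, none of the 101 genes was called. The smallest adjusted p were those of Bag3, a co-chaperone of HSP70 and a heat shock factor 1 target, with a log2 value of 0.39 (edgeR adjusted p = 0.636), and Hspa12b at -0.61 (edgeR adjusted p = 0.676). Of 22 immediate early genes 0 were called for housing. Their summed level ran from 3229 to 3399 CPM in SPF and from 2494 to 3770.2 in CVT pools, with CVT pool 4 the highest and CVT pool 6 the lowest, the same pools that were highest and lowest for Hspa1a. Their part in the Hspa1a levels was not tested.

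Over the 48 sums of a class in a pool, genes with a mean of at least 10 CPM were compared with Hspa1a. Hspa1b lay below that mean and was not compared. The genes whose log2 level went most closely with Hspa1a were Atp5a1 (Pearson r = 0.764), Atp5b (0.725), Ppa2 (0.707), Idh3g (0.704) and Eif3l (0.698), out of the 7362 genes compared. Of the other chaperone genes in that comparison, Hsp90ab1 had rank 33 with r = 0.626, Hsp90aa1 had 0.555, Hspd1 0.531, Hspa8 0.521, Hspe1 0.413, Dnajb1 0.357, Hsph1 0.289 and Dnaja1 0.262. The points share libraries and depth, so the values are a description.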

How the data were processed

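Single-cell RNA was profiled from 8 pools of sorted KL cells. The deposited table holds whole UMI counts per gene and cell, not normalized. The submitters' processing notes name Cell Ranger (version not given in the sources used here) and build mm9. Pools were read from the cell-name suffix, matched to the sample descriptions. No doublet caller was run.

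Counts were summed per pool, and over cells of each class, and tested with edgeR 4.0.16 (TMM, quasi-likelihood, Benjamini-Hochberg over all genes kept by filterByExpr) in R 4.3.3. The housing fit held no other term, the pool-set fit held housing, and a further fit held both and their interaction. DESeq2 1.42.0 was an alternative, and the fits were tested on simulated data. Cells were clustered with leidenalg 0.10.2 (Leiden, resolution 2, 30 components) without chaperone and stress genes, and 36 clusters were named from markers, 4 staying unnamed. Levels are CPM, scaled to the UMIs of a pool or of a class in it. Per-cell comparisons used cells thinned to 2759 UMIs.

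The members, gene lists and markers were chosen with earlier results of these data known. Outside the 10 genes, the named ones were, per contrast, the 2 called genes of the chaperone lists that rose most and the 2 that fell most or, with none called, the 2 with the smallest adjusted p, and the 5 genes most like Hspa1a. Nothing in the labels says that pools within a group came from separate experiments, so p-values measure the spread between these pools. Alternatives were other scaling, filters, tools, thinning, clusterings and leaving out each pool.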

Additional observations from a re-analysis of the deposited data

How the results depend on the processing

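For housing, DESeq2 called 13 genes and edgeR with the pool set as a block 4, against 0, and none of the 10 chaperone genes was among them. For the pool sets, thinned cells gave 900 genes called against 2646, and leaving out 1 pool at a time gave from 82 (without CVT pool 3) to 4510 (without SPF pool 8). Under other size factors (1278 of 13092 genes called lower) or a cell filter (1321 of 13069), 5 chaperone genes were called. The same number was called with thinning (466 of 11735) or no late granulocyte clusters (1204 of 13011). DESeq2 called 7 (1386 of 13092), no filter on low counts gave 9 (1378 of 19020) and no housing term 4 (1061 of 13092). Hsph1, lower in all KL cells, had a log2 value of 0.62 within LTHSC-like cells (edgeR adjusted p = 0.596), an alternative chosen after seeing the data, as were all fits within a class. The causes were not tested. The class with the highest level was the same for 8 of the 10 genes at resolution 1 and for all 10 with the chaperone and stress genes kept in the clustering or with the cell filter. The class with the lowest level was the same for 8 of the 10 at resolution 1, for 8 with those genes kept and for all 10 with the cell filter. Pools of 2 or 3 mice, 4 per group, and 9 Hspa1a UMIs in LTHSC-like cells limit the precision.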
